A study of Mus musculus with 18 samples.

Results

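The transcriptional response to palmitate was measured in C2C12 myotubes that carried a non-targeting siRNA. C2C12 cells are a long-established mouse myoblast line, and they fuse into multinucleated myotubes when serum is lowered. The comparison used 6 of the 18 libraries of the series, 3 labelled siNTC_Palmitic and 3 labelled siNTC_BSA. All 6 came from confluent myoblasts transfected with a pool of non-targeting siRNAs, differentiated for 6 days and then kept for 16 h in serum-free medium, which held either 0.5 mM palmitic acid bound to BSA (PA) or the BSA carrier alone. The other 12 libraries come from myotubes with Erk3 or Mk5 silenced (siErk3 and siMk5) in the same media. Poly(A) RNA was sequenced on both ends with strand information, and the deposited table holds the number of read pairs assigned to each of 55414 genes. The 21772 genes with at least 10 read pairs in total over the 18 libraries were tested. All libraries stem from 1 cell line, and it is not stated whether replicate libraries came from different cultures, so the p-values measure the spread between these libraries only.

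Palmitate is the most common saturated fatty acid of the diet. Inside a cell it is activated to palmitoyl-CoA, which can be oxidized in mitochondria, stored as triglyceride in lipid droplets or built into ceramides, and fatty acids are also ligands of the PPAR receptors, which switch on genes of fat oxidation and storage. A saturated membrane of the endoplasmic reticulum (ER) activates the ER stress sensors. These feed the unfolded protein response, which raises chaperones, and the integrated stress response, in which phosphorylation of eIF2 lowers general translation while the factor ATF4 is made and raises genes of amino acid supply.

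The assigned read pairs per library ranged from 13041979 to 23615343 with BSA and from 20616411 to 22636931 with PA. The BSA library labelled replicate 1 was the shallowest. A chi-square averaged over genes was 36.6 and 21 between it and the other BSA libraries and 5.4 between these. This mean includes the 18S ribosomal RNA gene, which held 2.56% of pairs in replicate 1 and 7.17% and 5.64% in the others. Its weight in the mean was not separated, so the values do not show how far genes in general differ. Without replicate 1, 6426 genes passed the criteria given below, against 6661 with all libraries. The share of pairs on the 18S ribosomal RNA gene was 2.56% to 7.17% with BSA and 5.32% to 6.43% with PA. Myotube markers were abundant in all 6 libraries. Des, the intermediate filament of muscle, was measured at 1899.8, 2084 and 2053 CPM with BSA and 2124, 2189 and 2209 with PA. It does not stand for the rest, since 5 of the 11 myotube markers were lower with PA by the criteria below and none was higher. The median log2 fold change of the 11 was -0.26. Of the markers of osteoblasts and chondrocytes 5 were tested and none passed, with a summed level of 10.8 to 14.3 CPM in any library. Markers of adipocytes summed to at most 0.152 CPM. Of the leukocyte markers 4 were tested and 1 was lower with PA, with a summed level of 7.09 to 8.91 CPM in any library. The leukocyte gene Ptprc did not reach the count minimum.

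Genes were called changed where the FDR (adjusted p-value of edgeR's quasi-likelihood test) was below 0.05 and levels differed more than 1.3-fold, up or down. Levels are in CPM, the usual unit of read counts relative to library size, here scaled by TMM, and differences are log2 fold changes of PA minus BSA with their standard error. By these criteria 6661 of 21772 genes changed (30.6%), 3381 of them higher with PA (15.5%) and 3280 lower (15.1%). A fold change above 2 was reached by 1262 genes that rose (5.8%) and 1173 that fell (5.39%), and one above 8 by 328 and 82. The median log2 fold change of all genes tested was -0.03. Genes on a list of interferon-stimulated genes or a list of fiber-type genes made up 168 of the changed genes. The 6493 on neither list (97.5%) are the subject of what follows. Absence from the lists does not show that a gene is free of interferon control. Among protein-coding genes 3037 rose and 2662 fell of 14994 tested, whereas among long non-coding RNA genes 156 rose and 402 fell of 2731. An exact permutation test of 3 libraries against 3 has 0.1 as its smallest p-value. The libraries of the media did not overlap in 51.3% of all genes.

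**Figure D1:**
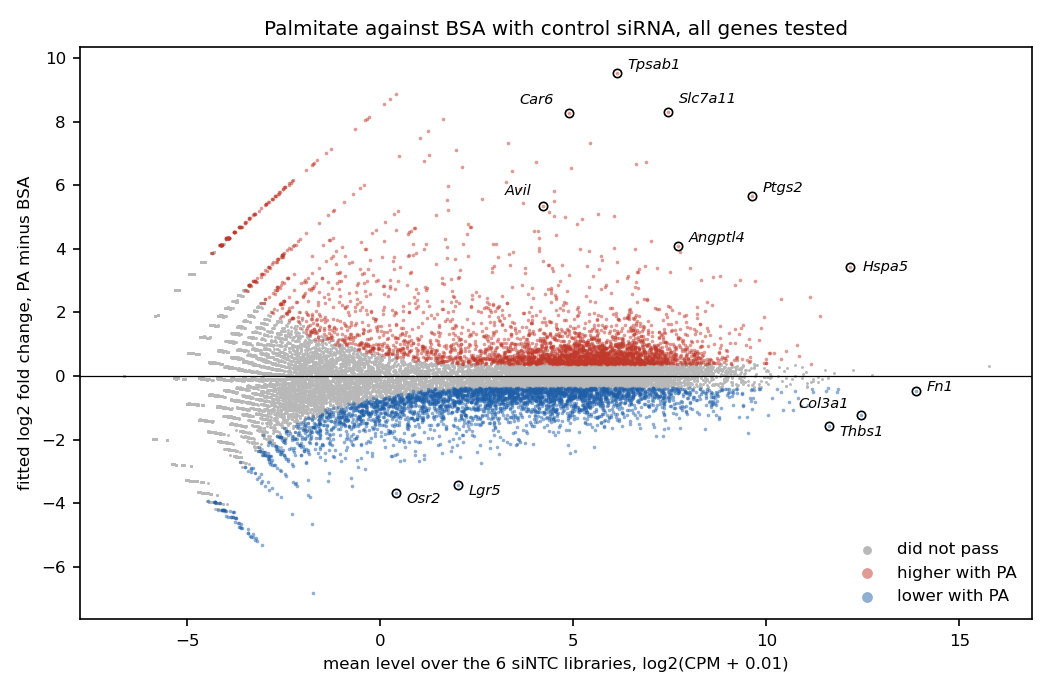
Fitted log2 fold change of PA minus BSA (vertical axis) against the mean level over the 6 siNTC libraries (horizontal axis, log2 of CPM + 0.01) for the 21772 genes tested, with changed genes in red (3381 higher) and blue (3280 lower). Labelled genes are examples at high and low levels with large or small changes, such as Hspa5 at a log2 fold change of 3.43. The slanting rows of points at the left are genes with few read pairs.

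To describe the response by function, 26 lists of genes with known roles were used. The lists were written with earlier results of these data known, so their counts and medians are descriptions and not tests. They hold 820 genes, of which 809 reached the count minimum and 463 changed, and the members counted below are those that reached it. Every count is to be read beside the 15.5% higher and 15.1% lower among all genes tested. Among protein-coding genes alone 38% changed, against 30.6% of all genes. The lists of the unfolded protein response, the integrated stress response and the NRF2 targets had the highest medians, and those of the extracellular matrix, myogenic differentiation and the cell cycle had the lowest.

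**Figure D2:**
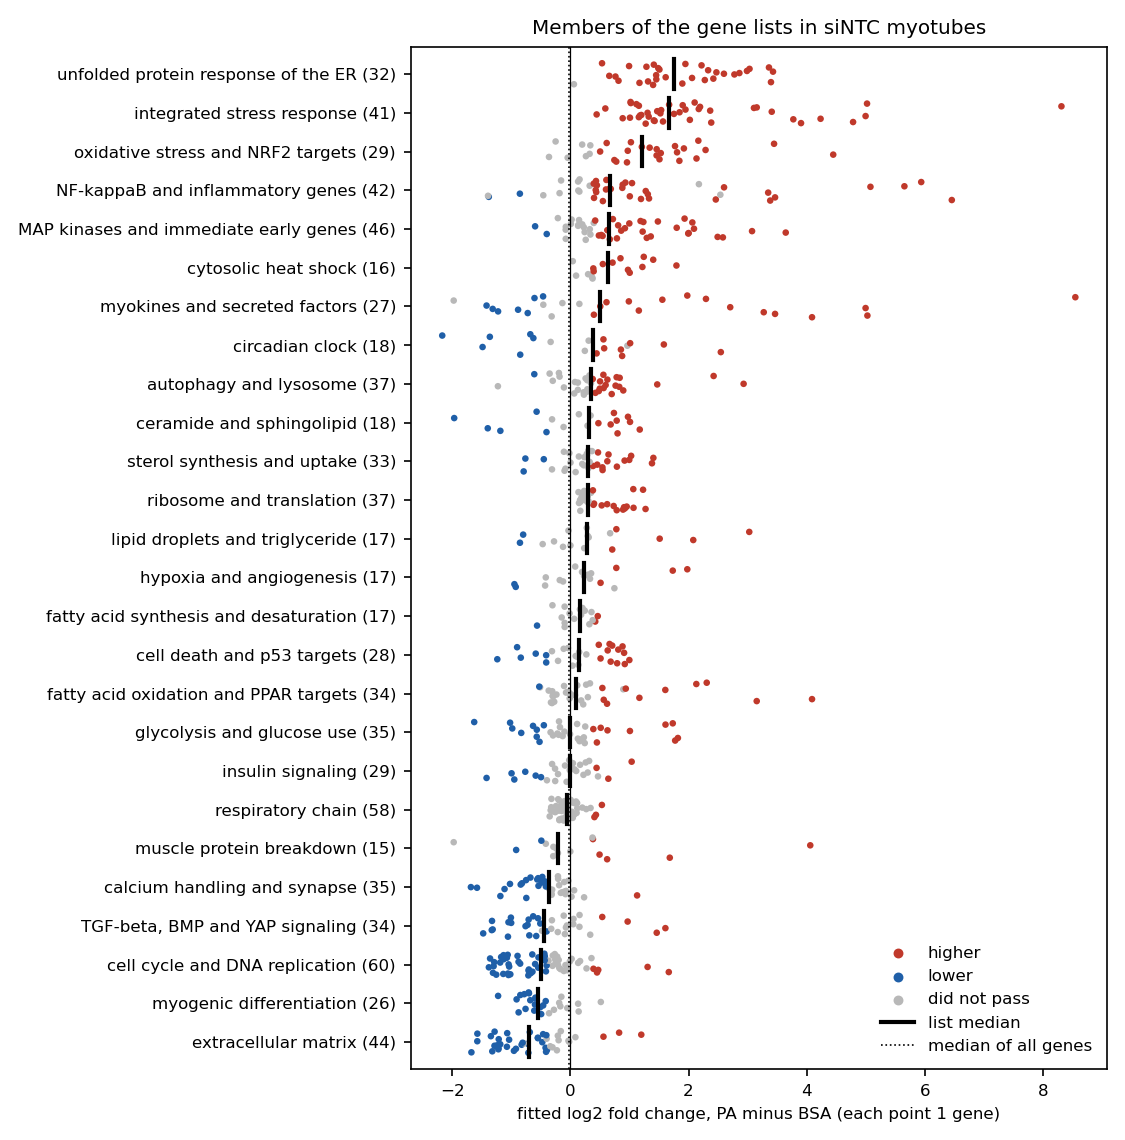
Log2 fold change of PA minus BSA for every tested member of the 26 lists (number of members in brackets), with members that rose in red, members that fell in blue and members that did not pass in grey. Black bars mark list medians, from 1.75 for the unfolded protein response to -0.7 for the extracellular matrix, and the dotted line marks the median of all genes, -0.03.

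Genes of the integrated stress response rose as a body. All 41 members listed were tested and all 41 were higher with PA, where 15.5% of all genes were, and 38 of them changed more than 2-fold, with a median log2 fold change of 1.67. Atf4, the central factor, was found at 216, 223 and 232 CPM with BSA and 616, 673 and 701 with PA, a log2 difference of 1.57 (standard error 0.05, FDR = 2.09e-21). Much larger was the rise of its target Ddit3, which encodes the pro-apoptotic factor CHOP, from 10.5, 14.5 and 13.4 CPM to 227, 252 and 259 CPM. All 3 PA libraries lay above all 3 BSA libraries for both genes. Trib3, a pseudokinase that restrains ATF4 and AKT, went from 4.28, 3.75 and 4.02 CPM to 121, 131 and 136 CPM, a log2 difference of 5.02 (standard error 0.08, FDR = 6.1e-29). Atf3, a stress-induced repressor, rose by 4.78 ± 0.12 and Chac1, which degrades glutathione, by 3.77 ± 0.09 (log2 fold change ± standard error). Ppp1r15a encodes GADD34, the subunit that directs dephosphorylation of eIF2, and rose by 3.41 ± 0.08.

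The amino acid branch held the steepest change of the list. Slc7a11, the cystine importer that supplies glutathione synthesis, was measured at 1.19, 0.875 and 1.28 CPM with BSA and 301, 344 and 405 with PA, a ratio of means of 314. The groups were further apart here than for any other member of the list. Its partner chain Slc3a2 rose from 74.3, 86.2 and 84.6 CPM to 600.3, 705 and 815 CPM. The mitochondrial folate enzyme Aldh1l2 rose by 3.90 ± 0.06, and the glycine transporter Slc6a9 and asparagine synthetase Asns had log2 fold changes of 3.15 ± 0.07 and 2.38 ± 0.07. Serine is both a building block and the source of folate-bound carbon. Its synthesis enzymes Phgdh, Psat1 and Psph rose by 1.85, 1.47 and 2.37. All 12 cytosolic tRNA synthetases on the list rose, from 0.45 for Mars1 to 2.10 for Wars1 (an enzyme that interferon also induces). Of the hormones that stressed tissues secrete, Gdf15 rose from 2.04, 1.75 and 1.32 CPM to 45, 54.9 and 60.7 CPM and Fgf21 from 7.52, 8.33 and 9.22 CPM to 16.6, 19.7 and 20.3 CPM, so that Gdf15 changed 31.4-fold and Fgf21 2.26-fold.

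Promoters of these genes were searched for the C/EBP-ATF composite element, the site at which ATF4 pairs with a C/EBP factor, written here as TGATGNAAN and read on both strands over 250 bases before and 50 after the start of each gene. RefSeq promoters were at hand for 27 members, and 8 of them held the letters (29.6%), against 4.5% of 27025 genes with a promoter. The 4 genes shown here were taken in order of FDR among members with a match before the start, and rose by 2.38 to 8.31 on the log2 scale. The stretches span 100 bases each, from upstream of the start. They are given 5′ to 3′ on the gene's strand with coordinates of GRCm38.p6, an older build than that of the counts, and capitals mark the fixed letters of a match on either strand.
Slc7a11 (chr3:50443614-50443713, minus strand): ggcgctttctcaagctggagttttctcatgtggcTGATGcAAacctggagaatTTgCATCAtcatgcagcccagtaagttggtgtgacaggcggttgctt
Chac1 (chr2:119351002-119351101, plus strand): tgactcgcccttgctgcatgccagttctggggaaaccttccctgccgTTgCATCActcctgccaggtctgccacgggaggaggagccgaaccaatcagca
Atf3 (chr1:191183391-191183490, minus strand): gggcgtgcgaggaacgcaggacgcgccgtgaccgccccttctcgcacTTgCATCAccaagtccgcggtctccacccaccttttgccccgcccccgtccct
Asns (chr6:7693210-7693309, minus strand): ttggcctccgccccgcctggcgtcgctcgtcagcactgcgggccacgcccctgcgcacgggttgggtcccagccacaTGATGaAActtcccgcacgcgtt
The Slc7a11 stretch holds the letters in both orientations, and the other 3 hold them 1 time each. A match describes letters in a window and is not evidence of binding.

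The unfolded protein response of the ER rose almost without exception. All 32 listed members were tested, of which 31 were higher with PA and none was lower, 26 of them by more than 2-fold, with a median of 1.75. Hspa5 encodes BiP, the main chaperone of the ER lumen. It stood at 805, 775 and 774 CPM with BSA and 7758, 8558 and 9058 with PA, a log2 difference of 3.43 (standard error 0.06, FDR = 9.5e-28). Per kilobase of transcript its mean level went from 186 to 1999.9 CPM per kb, the largest gain of any changed gene outside the interferon and fiber-type lists. Creld2, a secreted folding factor, rose from 41.9, 47.6 and 44.5 CPM to 453, 476 and 489 CPM, and Sdf2l1, which keeps BiP clients soluble, from 15.3, 19.3 and 20.4 CPM to 181, 196 and 197 CPM. The disulfide isomerase Pdia4 was found at 134, 142 and 144 CPM with BSA and 1099.8, 1173 and 1163 with PA. In each of these genes the lowest PA library was several times the highest BSA library.

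All 16 chaperones and folding enzymes rose by more than 2-fold, with a median of 2.45. The HSP90 of the ER, Hsp90b1, and the nucleotide exchange factor Hyou1 had log2 fold changes of 2.47 ± 0.05 and 2.99 ± 0.06, and the lectin chaperones Calr and Canx of 1.90 ± 0.05 and 1.17 ± 0.04. All 11 members of ER-associated degradation and transport rose, led by Herpud1 at 2.86 ± 0.06 and the ligase adaptor Sel1l at 2.22 ± 0.05. The sensors themselves moved less. Ern1, which encodes IRE1, rose by 1.45 ± 0.06, Atf6 by 1.40 ± 0.05, Eif2ak3, which encodes PERK, by 0.66 ± 0.07 and Xbp1, whose spliced form was not measured, by 0.54 ± 0.05. Atf6b, a close relative of Atf6, was the 1 member that did not pass, at 41.2, 44.2 and 45.3 CPM with BSA and 45.3, 46.7 and 44.7 with PA (FDR = 0.488).

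The ER stress response element joins CCAAT and CCACG across a spacer of 9 bases and is bound by ATF6 together with NF-Y, whose own CCAAT box is part of it. Its letters stood in 10 of 27 promoters of the list (37%), those of Calr, Canx, Creld2, Derl3, Dnajc3, Ero1b, Hsp90b1, Hspa5, Pdia6 and Syvn1, but in 37 of 27025 promoters in all (0.137%). Because the element is so rare elsewhere, 4 stretches are shown, with the paired boxes in capitals (they read ATTGG and CGTGG where the element lies on the opposite strand).
Hspa5 (chr2:34771984-34772083, plus strand): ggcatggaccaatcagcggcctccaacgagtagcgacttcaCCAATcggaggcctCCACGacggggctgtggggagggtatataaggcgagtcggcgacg
Creld2 (chr15:88819479-88819578, plus strand): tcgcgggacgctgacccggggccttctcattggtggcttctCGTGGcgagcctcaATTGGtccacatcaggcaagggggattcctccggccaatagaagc
Hsp90b1 (chr10:86705493-86705592, minus strand): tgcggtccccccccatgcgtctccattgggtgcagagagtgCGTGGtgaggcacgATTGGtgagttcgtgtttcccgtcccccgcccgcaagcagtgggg
Dnajc3 (chr14:118937786-118937885, plus strand): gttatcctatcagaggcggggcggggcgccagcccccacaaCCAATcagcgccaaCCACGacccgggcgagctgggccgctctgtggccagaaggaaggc
The 4 genes rose by 2.06 to 3.43 on the log2 scale. Of the 820 genes that rose by more than 2-fold and had a promoter, 13 held the element (1.58%).

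**Figure D3:**
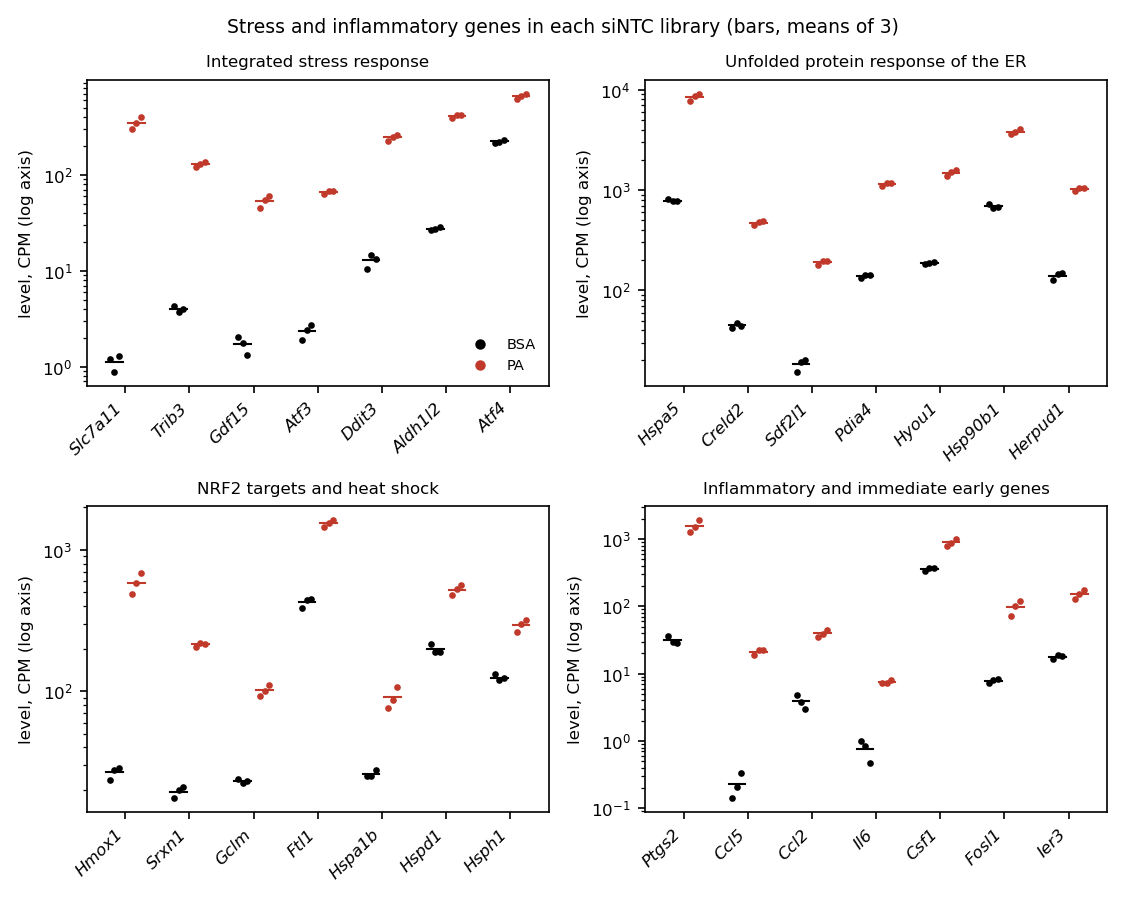
Level of 28 stress and inflammatory genes in each siNTC library (CPM, logarithmic axis), with BSA in black and PA in red, each point 1 library and each bar the mean of 3. The 3 PA libraries lie above the 3 BSA libraries for every gene shown, with the widest gap for Slc7a11.

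The heat shock genes of the cytosol and the mitochondrial matrix rose less than the ER chaperones. Of 16 members 11 were higher and none was lower, with a median of 0.63. Hspa1b, the inducible HSP70, was found at 25.1, 25.1 and 27.5 CPM with BSA and 76.3, 87.3 and 107 with PA, a log2 difference of 1.80 (standard error 0.11, FDR = 2.21e-14). It shares most of its sequence with Hspa1a (1.22 ± 0.16), so the split of read pairs between the pair is uncertain. The chaperonin genes of mitochondria, Hspd1 and Hspe1, rose by 1.40 ± 0.06 and 0.85 ± 0.05, and Hsph1 by 1.24 ± 0.07. The muscle small heat shock protein genes Cryab and Hspb8 had values of 0.10 ± 0.06 and 0.04 ± 0.05 and did not pass. The heat shock element (GAA, TTC and GAA with 2 bases between each) stood in 4 of 11 promoters of the list, against 0.662% of all. Hspd1 and Hspe1 are neighbours that are read in opposite directions from 1 shared stretch, which is shown once for each strand because it carries overlapping copies of the element.
Hspd1 (chr1:55088016-55088115, minus strand): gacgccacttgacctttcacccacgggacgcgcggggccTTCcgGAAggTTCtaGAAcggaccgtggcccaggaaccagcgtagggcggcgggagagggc
Hspe1 (chr1:55088020-55088119, plus strand): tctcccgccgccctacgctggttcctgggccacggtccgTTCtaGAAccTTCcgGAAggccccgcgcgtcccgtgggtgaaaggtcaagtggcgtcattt

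Targets of NRF2, the factor that answers oxidants and electrophiles, rose in 22 of 29 members, with none lower and a median of 1.21. Hmox1, which breaks down heme, was measured at 23.7, 27.7 and 28.7 CPM with BSA and 485, 586 and 691 with PA, a log2 difference of 4.45 (standard error 0.13, FDR = 5.83e-23). Srxn1, which restores oxidized peroxiredoxins, rose from 17.4, 20 and 20.9 CPM to 206, 219.9 and 217 CPM. The genes of glutathione synthesis, Gclc and Gclm, rose by 1.51 ± 0.07 and 2.14 ± 0.08, thioredoxin reductase Txnrd1 by 2.17 ± 0.11 and the quinone reductase Nqo1 by 2.29 ± 0.08. Ferritin light chain Ftl1 and the metallothioneins Mt1 and Mt2, which hold iron and zinc, had values of 1.85 ± 0.06, 1.53 ± 0.05 and 1.81 ± 0.06. Nfe2l2, which encodes NRF2, rose by 0.97 ± 0.06. Pgd and G6pdx, enzymes that make NADPH, rose by 1.92 ± 0.05 and 0.75 ± 0.06. Superoxide dismutases Sod1 and Sod2 and the peroxidases Gpx1 and Gpx4 did not pass, with values from -0.05 to 0.34. The letters TGACNNNGC of the antioxidant response element stood in 9 of 24 promoters of the list (37.5%), against 14% of all promoters. They are not particular to this list. The shares of the other lists ran from 0% for lipid droplets to 40.7% for the integrated stress response, with 36.1% for the MAP kinase and immediate early genes.

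Inflammatory genes rose in part. Of 42 NF-kappaB and inflammatory genes 29 were higher and 2 lower, with a median of 0.68. Outside the interferon and fiber-type lists 27 of 40 were higher and 2 lower, with a median of 0.64. Ptgs2, which encodes cyclooxygenase-2 and makes prostaglandin precursors, was found at 35.8, 29.6 and 28.7 CPM with BSA and 1258, 1525 and 1913 with PA, a log2 difference of 5.65 (standard error 0.17, FDR = 4.87e-22). The lowest PA library exceeded the highest BSA library many times over. The chemokine genes Ccl5 and Ccl2 rose from 0.14, 0.208 and 0.331 CPM to 19.3, 22.2 and 22.1 CPM and from 4.85, 3.83 and 3.03 CPM to 35.1, 39.3 and 45 CPM, and the cytokine gene Il6 from 0.983, 0.833 and 0.473 CPM to 7.33, 7.39 and 8.14 CPM. Csf1, a growth factor for macrophages, went from 335, 367 and 366 CPM to 797, 887 and 1005 CPM. Tnf had 0 read pairs in the 3 BSA libraries and 22 in the PA libraries, at least 6.81-fold higher against a floor of 3 read pairs over the group.

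The NF-kappaB subunits and their inhibitors moved less than the cytokines and chemokines, with medians of 0.50 and 1.31. Nfkb1 stood at 118, 128 and 134 CPM with BSA and 135, 139.7 and 144 with PA and did not pass the fold criterion, and Nfkbia, Relb and Rela had log2 fold changes of 0.60 ± 0.09, 0.89 ± 0.07 and 0.45 ± 0.05. Tlr4, the lipopolysaccharide receptor, and its adaptor Myd88 rose by 0.93 ± 0.06 and 1.28 ± 0.08. The members that fell were Cxcl12, a chemokine that retains progenitor cells, at 96.2, 104 and 106 CPM with BSA and 45.8, 40.2 and 31.3 with PA, and the interleukin-1 receptor gene Il1r1 at -0.85 ± 0.06. Promoters with the NF-kappaB letters (GGG, any 2 bases, TTTCC) made up 8 of 29 on the list (27.6%), against 1.9% of all. The 3 shown belong to secreted factors that rose, and the site reads GGAAA, any 2 bases, CCC where it lies on the other strand.
Csf1 (chr3:107760569-107760668, minus strand): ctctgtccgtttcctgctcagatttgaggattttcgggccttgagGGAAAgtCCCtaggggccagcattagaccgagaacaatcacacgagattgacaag
Il6 (chr5:30013014-30013113, plus strand): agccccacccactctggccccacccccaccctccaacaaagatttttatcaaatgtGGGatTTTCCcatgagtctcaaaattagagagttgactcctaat
Cxcl1 (chr5:90891129-90891228, plus strand): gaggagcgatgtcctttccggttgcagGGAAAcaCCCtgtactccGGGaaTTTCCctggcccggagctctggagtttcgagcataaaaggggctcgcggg
Cxcl1, a neutrophil chemokine, went from 1.48, 1.54 and 0.804 CPM to 13, 13 and 16.1 CPM.

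Among MAP kinase genes and the immediate early factors downstream of them, 28 of 46 members rose and 2 fell. The immediate early factors led, with 15 of 21 higher and a median of 1.19. Fosl1, an AP-1 subunit, was found at 7.17, 8 and 8.23 CPM with BSA and 72.6, 101 and 122 with PA, and Ier3, a stress-induced survival gene, at 16.5, 18.7 and 18.1 CPM with BSA and 128, 150.4 and 175 with PA. Myc and Klf4 rose by 2.06 ± 0.10 and 2.09 ± 0.05, whereas Egr3 fell by 0.40 on the log2 scale. The phosphatases and Sprouty proteins that switch MAP kinases off rose in 11 of 15 members, led by Dusp4 (2.58 ± 0.12), Dusp5 (2.49 ± 0.21) and Spry4 (1.93 ± 0.12). Of the kinases 2 of 10 rose and 1 fell. Mapk6, which encodes Erk3, the kinase silenced elsewhere in the series, stood at 135, 129 and 133 CPM with BSA and 215, 236 and 244 with PA, a log2 difference of 0.81 (standard error 0.06, FDR = 2.11e-13). Mapkapk5, which encodes Mk5, was measured at only 2.53, 2.54 and 2.32 CPM with BSA and 2.52, 3.92 and 3.28 with PA and did not pass (log2 fold change 0.40, FDR = 0.0764). Mapk3, which encodes ERK1, fell from 75.9, 91 and 88.1 CPM to 57.1, 58.5 and 53.8 CPM.

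Of 34 genes of fatty acid oxidation and PPAR targets 10 rose and 1 fell, with a median of 0.10. Angptl4, a secreted inhibitor of lipoprotein lipase and a classical PPAR target, had the smallest FDR of all 21772 genes. It was found at 21.4, 24.3 and 23.8 CPM with BSA and 391, 399 and 404 with PA, a log2 difference of 4.09 (standard error 0.06, FDR = 2.6e-30). Of the other fuel switches, Pdk4, which shuts off pyruvate oxidation, went from 40.9, 40.3 and 38.6 CPM to 116, 125 and 123 CPM, and Ucp3, an uncoupling protein of muscle, was scarce and went from 0.14, 0.0417 and 0.189 CPM to 0.855, 0.547 and 0.404 CPM. Of 11 genes of uptake, activation and carnitine transfer 4 rose and 7 did not pass, with a median of 0.27. Those that rose were the thioesterase Acot2 (3.15 ± 0.10, with the near-identical Acot1 at -0.27 ± 0.25), the transporter Slc27a1 (2.13 ± 0.06), the carnitine transferase Cpt1a (1.17 ± 0.07) and Acsl1 (0.57 ± 0.07). Among the 12 enzymes of beta-oxidation, by contrast, only Acadl passed, at 0.62 ± 0.05, and the group median was -0.14. Hadha and Acadvl had values of -0.31 ± 0.05 and -0.33 ± 0.05 and stayed below the fold criterion. Of the receptors, Ppard and Pparg rose by 0.94 ± 0.07 and 0.54 ± 0.12, and the coactivator gene Ppargc1b fell by 0.53 on the log2 scale.

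For lipid droplets, 5 of 17 members rose and 2 fell (29.4% and 11.8%, against 15.5% and 15.1% of all genes). Plin2, the coat protein of most droplets outside fat tissue, was found at 67.3, 70.2 and 69.3 CPM with BSA and 502, 574 and 613 with PA, a log2 difference of 3.03 (standard error 0.07, FDR = 1.3e-25). Gpat3, which starts triglyceride synthesis, and Hilpda, which inhibits the lipase ATGL, rose by 2.08 ± 0.13 and 1.51 ± 0.13. The acyltransferase genes Dgat1, Dgat2 and Gpam did not pass. Mgll and G0s2, a lipase and a lipase inhibitor, fell by 0.80 and 0.85. Synthesis and desaturation of fatty acids moved in few genes, with 2 of 17 members higher and 1 lower (11.8% and 5.88%). Fatty acid synthase, Fasn, had a value of -0.01 ± 0.05, and the desaturase Scd1 of 0.21 ± 0.05.

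Sterol genes rose modestly, in 13 of 33 members with 3 lower. The mevalonate and sterol enzymes accounted for 10 of these, among them Mvd at 1.00 ± 0.07 and Msmo1 at 0.92 ± 0.04. Npc1, which lets cholesterol out of lysosomes, rose by 1.41 ± 0.05 and Insig1, which holds back SREBP, by 1.38 ± 0.05, whereas Srebf2 did not pass. The letters TCACNCCAC of the sterol regulatory element stood in only 1 of 22 promoters of the list, that of Hmgcs1, against 1.44% of all promoters. In ceramide metabolism 8 of 18 members rose and 5 fell. Ceramide synthase Cers2, which prefers very long acyl chains, went from 101, 97 and 98.7 CPM to 208, 232 and 229.7 CPM, while Cers1, the synthase typical of muscle, fell from 2.6, 3.75 and 3.17 CPM to 1.48, 1.46 and 1.31 CPM. Sptlc2, a subunit of the first enzyme of the pathway, rose by 0.74 ± 0.05, and both Asah1 and Sphk1, which take ceramide onward to sphingosine 1-phosphate, by 0.80 ± 0.04 and 0.98 ± 0.08. Ugcg, which turns ceramide into glucosylceramide, fell by 0.57.

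Glucose genes moved in both directions, 9 of 35 higher and 9 lower. Entry of glucose was on the rising side, with the transporter Slc2a1 at 43.2, 47 and 48.6 CPM with BSA and 137, 157 and 169 with PA and hexokinase Hk2 at 39.6, 41.5 and 43.2 CPM with BSA and 131, 149.6 and 159.6 with PA. The insulin-responsive transporter Slc2a4 was scarce and fell from 0.632, 0.708 and 0.567 CPM to 0.09, 0.41 and 0.101 CPM. Slc16a1, which carries lactate, and the glycogen branching enzyme Gbe1 rose by 1.61 ± 0.05 and 1.77 ± 0.08. The muscle isoforms Pfkm, Pgam2 and Eno3 fell by 0.57, 0.98 and 0.52, and the last pair also counts among the fiber-type genes. In insulin signaling 3 of 29 rose and 6 fell (10.3% and 20.7%, against 15.5% and 15.1% of all genes). Igf1, a growth factor that muscle makes for itself, was found at 112, 103 and 104 CPM with BSA and 49.8, 39.3 and 29.5 with PA. Irs1, the docking protein of the insulin receptor, stood at 236, 244 and 249 CPM with BSA and 155, 138 and 137 with PA, while Insr, Akt1 and Akt2 did not pass.

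The respiratory chain was the list with the smallest share of changed members. Of 58 members 3 rose and none fell, against 15.5% and 15.1% of all genes, with log2 fold changes from -0.35 to 0.53. Outside the interferon and fiber-type lists 2 of 57 rose. None of the 13 mitochondrially encoded subunits passed, with log2 fold changes from -0.32 to 0.11. The 3 that rose were Cycs (cytochrome c) at 0.43 ± 0.05, Tfam, the packaging protein of mitochondrial DNA, at 0.53 ± 0.06, and Cox6a2 at 0.41 ± 0.09. The ribosomal RNAs of mitochondria rose, unlike the messenger RNAs of the same genome. mt-Rnr1 was found at 358, 341 and 361 CPM with BSA and 657, 681 and 829 with PA, a log2 difference of 1.03 (standard error 0.09, FDR = 3.57e-11), and mt-Rnr2 had a value of 0.62 ± 0.08. Libraries selected by poly(A) capture these transcripts only in part.

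Among the falling groups, mitotic genes moved most uniformly. Of 60 genes of the cell cycle and DNA replication, 35 fell and 5 rose. Of the 18 mitotic genes 17 fell, where 15.1% of all genes did, with a median of -1.07. Mki67, the proliferation antigen Ki-67, was found at 412, 401 and 412 CPM with BSA and 202, 185 and 173 with PA, and Cenpf, a kinetochore protein, at 174, 163 and 169 CPM with BSA and 71.6, 68.5 and 65.3 with PA. Prc1, which bundles the spindle midzone, went from 108, 103 and 109 CPM to 48.9, 45.8 and 47.3 CPM. In all 3 genes the PA libraries were below every BSA library and close to each other. Replication genes fell in 7 of 21 members, such as Rrm1 (-0.89 ± 0.06) and Tk1 (-1.13 ± 0.09), while the licensing factors Cdt1 and Cdc6 rose by 1.31 ± 0.09 and 0.47 ± 0.11. Ccnd2, a cyclin of early G1, rose from 52.4, 50.9 and 49.4 CPM to 161, 164 and 159 CPM. In cultures that hold fused and unfused cells, fewer cells of a type and less RNA per cell cannot be told apart. Marker genes of undifferentiated myoblasts and reserve cells fell in 3 of 7 tested members (Heyl at -1.86 ± 0.17, Pax7 at -0.85 ± 0.10 and Cd34 at -0.58 ± 0.05) and rose in 1, Sdc4 (0.45 ± 0.06). Their summed level was 331 to 343 CPM with BSA and 307 to 323 with PA, and their part in the fall of mitotic genes was not tested. The CHR element TTTGAA, at which repressor complexes of the cell cycle bind, stood in 15 of 47 promoters of the list (31.9%), against 20.2% of all promoters. The 2 shown belong to genes named here.
Prc1 (chr7:80294376-80294475, plus strand): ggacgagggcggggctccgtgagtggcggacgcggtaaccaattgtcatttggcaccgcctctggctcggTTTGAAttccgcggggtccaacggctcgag
Mki67 (chr7:135716425-135716524, minus strand): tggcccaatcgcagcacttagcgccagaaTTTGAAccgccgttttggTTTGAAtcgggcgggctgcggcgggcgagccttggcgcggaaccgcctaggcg

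The extracellular matrix fell in 30 of 44 members, with 3 higher and a median of -0.7. Of the 15 collagen genes 12 fell. Col3a1 was found at 7396, 8081 and 8009 CPM with BSA and 3869, 3478 and 2762 with PA, a log2 difference of -1.22 (standard error 0.12, FDR = 5.03e-10), and Col1a1, Col6a1 and Col5a1 fell by 1.22, 1.28 and 1.07. Fibronectin, Fn1, a glycoprotein on which cells and collagens assemble, went from 16100.1, 18270.0 and 18191 CPM to 13369, 12801 and 11659.8 CPM. Thrombospondin 1, Thbs1, an activator of latent TGF-beta, fell from 4559, 4857 and 4705 CPM to 1862, 1519 and 1364 CPM. For Col3a1 and Thbs1 the PA library labelled replicate 3 was the lowest and replicate 1 the highest of the PA libraries, an order found in many changed genes: of the 6661, replicate 3 was the farthest from BSA in 4062 (61%) and replicate 1 the nearest in 4143 (62.2%). The basement membrane gene Nid2 and the aggrecanase Adamts5 fell by 1.34 and 1.67. Members that rose included Nid1 (0.56 ± 0.07) and the protease inhibitor Timp1 (0.83 ± 0.06).

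Ligands and targets of TGF-beta, BMP and YAP fell in 17 of 34 members and rose in 4. Among ligands, Bmp4 (-1.47 ± 0.12) and Tgfb3 (-1.01 ± 0.06) fell, and so did the activin antagonist Fst, at 149, 144 and 139.7 CPM with BSA and 61.1, 58.3 and 54.4 with PA. The BMP antagonist Grem1 went the other way, from 339, 321 and 345 CPM to 959, 1029.6 and 1075 CPM, and Bmp6 rose by 1.46 ± 0.40. Smad3, which carries the TGF-beta signal to the nucleus, and the contractile target genes Acta2 and Tagln fell by 1.00, 1.06 and 1.33. Smad7, the inhibitory member, rose by 0.97 ± 0.09, and Ccn1, Ankrd1, Yap1 and Wwtr1 did not pass.

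Myogenic genes fell in 17 of 26 members and rose in none, with a median of -0.55. Myod1, which commits cells to the muscle lineage, was found at 80.9, 90.6 and 96.9 CPM with BSA and 52.7, 46.9 and 43.5 with PA, and Myog, which drives their differentiation, at 499, 485 and 489.9 CPM with BSA and 336, 329 and 310.3 with PA. The satellite cell factor Pax7 and the receptor Notch3 fell by 0.85 and 1.22, and the fusion genes Mymk and Mymx by 0.42 and 0.68. Of 11 myotube markers 5 fell and none rose, with a summed level of 12590 to 13364 CPM with BSA and 11001 to 11635 with PA, and their part in these values was not tested. Des, Acta1, Neb and Ryr1 did not pass. At the neuromuscular synapse 9 of 15 members fell. Colq, which anchors acetylcholinesterase, was found at 11, 11.9 and 11.9 CPM with BSA and 4, 3.51 and 3.33 with PA, and the agrin receptor Lrp4 at 247, 272 and 278 CPM with BSA and 139.8, 131 and 123 with PA, whereas the receptor subunits Chrna1 and Chrnb1 did not pass. Of 20 genes of the sarcoplasmic reticulum 8 fell and 1 rose, and of the 14 that are not fiber-type genes 6 fell and none rose, with a median of -0.32. Its pumps moved in opposite directions. Atp2a1 fell from 273, 282 and 293 CPM to 125, 131 and 117 CPM and Atp2a2 rose from 584, 544 and 563 CPM to 1159, 1267 and 1275 CPM. Both are also on the fiber-type list.

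Genes of muscle protein breakdown did not move as a group, with 5 of 15 higher and 2 lower. The ubiquitin ligase of atrophy Fbxo32 stood at 78, 81.1 and 79.3 CPM with BSA and 80, 79.7 and 78.7 with PA, and Trim63 had a log2 fold change of 0.38 ± 0.06, just below the fold criterion. Klf15, a factor of amino acid breakdown, rose from 0.211, 0.292 and 0.567 CPM to 6.3, 6.66 and 5.81 CPM, and the translation inhibitor Eif4ebp1 rose by 1.68 ± 0.07, while Foxo1 fell by 0.92. In autophagy, 5 of 18 members rose, led by the cargo receptor Sqstm1 at 401, 429 and 420.5 CPM with BSA and 1994, 2246 and 2477 with PA, which is also a target of NRF2. Lysosomal genes rose in 13 of 19, among them Ctsl (0.83 ± 0.05), Gla (1.47 ± 0.09) and the factor Tfe3 (0.56 ± 0.05), but Tfeb fell by 0.61. Ribosomal protein genes rose in 1 of 22, with a median of 0.26, and genes of ribosome assembly in 14 of 15, with a median of 0.89. Nucleolin, Ncl, went from 564, 506 and 523 CPM to 974, 993 and 1054 CPM.

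Cell death genes and p53 targets were mixed, 12 of 28 higher and 6 lower. Cdkn1a, the best known p53 target, fell by 0.41, while Mdm2, Gadd45a and Trp53 rose by 0.81 ± 0.08, 0.91 ± 0.04 and 0.71 ± 0.06. Pro-apoptotic Bid and Bax rose by 1.00 ± 0.05 and 0.92 ± 0.06 and so did the protective Mcl1 and Bcl2l1, by 0.63 ± 0.06 and 0.68 ± 0.09, whereas Bmf fell by 1.24. In the hypoxia list 4 of 17 rose and 2 fell (23.5% and 11.8%, against 15.5% and 15.1% of all genes). Vegfa, the main angiogenic factor, went from 83.2, 85.7 and 89.1 CPM to 321, 338 and 359 CPM, and Car9, a marker of low oxygen, did not pass (-0.12 ± 0.24).

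The circadian clock split into genes that rose (8 of 18) and fell (6). Nfil3 and Ciart, which repress clock output, rose from 27.5, 29.2 and 29.2 CPM to 80.7, 87.9 and 89.3 CPM and from 1.33, 1.63 and 1.51 CPM to 8.5, 9.12 and 8.99 CPM. Dbp, which activates the same sites that Nfil3 represses, fell from 9.55, 11.4 and 13.2 CPM to 4.63, 4.29 and 3.33 CPM. Per1 rose by 0.56 ± 0.06 and Per2 and Per3 fell by 0.63 and 1.36. The samples are from 1 time point, so no phase can be read.

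Secreted factors of muscle rose in 15 of 27 members and fell in 7. Areg, a ligand of the EGF receptor, was found at 1.05, 1.5 and 1.32 CPM with BSA and 33.2, 44.9 and 52.8 with PA. Ereg, another such ligand, stood at 19.2, 18.8 and 19.7 CPM with BSA and 154, 185 and 220.1 with PA. Gdnf, which feeds motor neurons, rose by 2.71 ± 0.15, and Nampt, which makes a precursor of NAD, by 1.56 ± 0.05. Ostn, the peptide musclin, had 0 read pairs in the 3 BSA libraries and 2.61, 1.6 and 2.17 CPM in the PA libraries, at least 42.1-fold higher against a floor of 3 read pairs over the group. Fndc5, the precursor of irisin, and Erfe fell by 0.88 and 1.22.

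Of the changed genes 6038 were on none of the lists used. The steepest single rise among them was that of Tpsab1 (ENSMUSG00000024173, chromosome 17 from 25562219 to 25564536 of GRCm39), which encodes a tryptase known from mast cells. It stood at 0.14, 0.208 and 0.189 CPM with BSA and 135, 145 and 144 with PA, a log2 difference of 9.53 (standard error 0.14, FDR = 1.55e-29). The gene was close to 0 in BSA, while the leukocyte markers Cd68 and Cd14 did not pass, Csf1r fell (-1.50 ± 0.54) and Ptprc did not reach the count minimum. Car6, a secreted carbonic anhydrase of saliva, went from 0.14, 0.167 and 0.236 CPM to 56.1, 59.4 and 62.8 CPM. Tfcp2l1, a factor of kidney epithelium and pluripotent cells, was found at 0.562, 0.333 and 0.378 CPM with BSA and 21.8, 24.4 and 25.8 with PA and Avil, an actin-binding protein of sensory neurons, at 0.843, 0.958 and 0.804 CPM with BSA and 34.6, 36.8 and 36.8 with PA. None of these is a gene of muscle identity, and in each the PA libraries agreed closely.

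Among the smallest FDRs outside the lists were those of 4 more genes. Gpr137b, a lysosomal membrane protein, was found at 17.9, 18.2 and 20.2 CPM with BSA and 178, 188 and 179 with PA, the transaminase of branched-chain amino acids Bcat1 at 24, 23.3 and 25.1 CPM with BSA and 158, 172 and 177 with PA, and the glutathione transferase Gsta4 at 12.2, 11.4 and 11.1 CPM with BSA and 172, 180.2 and 196 with PA. Tenm4, an adhesion protein of the teneurin family, rose from 3.86, 4.54 and 4.21 CPM to 65.2, 69 and 67.8 CPM. Genes with hardly any BSA read pairs rose as well. Tenm2 had 1 read pair in the BSA libraries and 395 in the PA libraries, a ratio of 367 (95% counting interval 65.5 to 14524). The chemokine gene Ccl4 had 1 and 256 (ratio 238, interval 42.3 to 9426), the collagenase gene Mmp13 had 2 and 276 (ratio 128, interval 35.1 to 1063), and Cyp1a1, a target of the aryl hydrocarbon receptor, had 1 and 86 (ratio 79.9, interval 14 to 3191). These intervals cover counting error only. Dyrk4, H2-M10.1, Dnmt3l and Bhlha15 had none in BSA and were at least 47.1-fold, 52-fold, 31.9-fold and 29.7-fold higher. Trim30c passed the criteria but rested on 1 PA library, with 13.8, 0.137 and 0.253 CPM in the 3.

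Among genes with a mean of at least 1 CPM in a group, the steepest falls included the following. Lgr5, a receptor for R-spondins that amplifies WNT signals, was found at 7.17, 7.17 and 7.9 CPM with BSA and 1.03, 0.456 and 0.556 with PA, a log2 difference of -3.42 (standard error 0.26, FDR = 2.16e-12). Osr2, a transcription factor of connective tissue, went from 2.39, 2.92 and 2.03 CPM to 0.315, 0.182 and 0.0505 CPM. Rab7b, a GTPase of the endosome, fell from 9.13, 10.7 and 11.8 CPM to 2.11, 1.5 and 1.11 CPM and Spon2, a secreted matrix protein, from 46.9, 52.1 and 54.6 CPM to 11.7, 9.62 and 7.07 CPM. The Nogo receptor Rtn4r was measured at 13.1, 14.7 and 15 CPM with BSA and 3.51, 2.74 and 1.57 with PA. The transcripts that lost most per kilobase were Thbs1, Col3a1 and Acta2, and Cilp, a matrix protein of cartilage, fell from 270.5 to 77.7 CPM per kb. The actin gene Actb, often used as a reference, and Tmsb4x, which binds actin monomers, fell by 0.46 and 0.61.

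**Figure D4:**
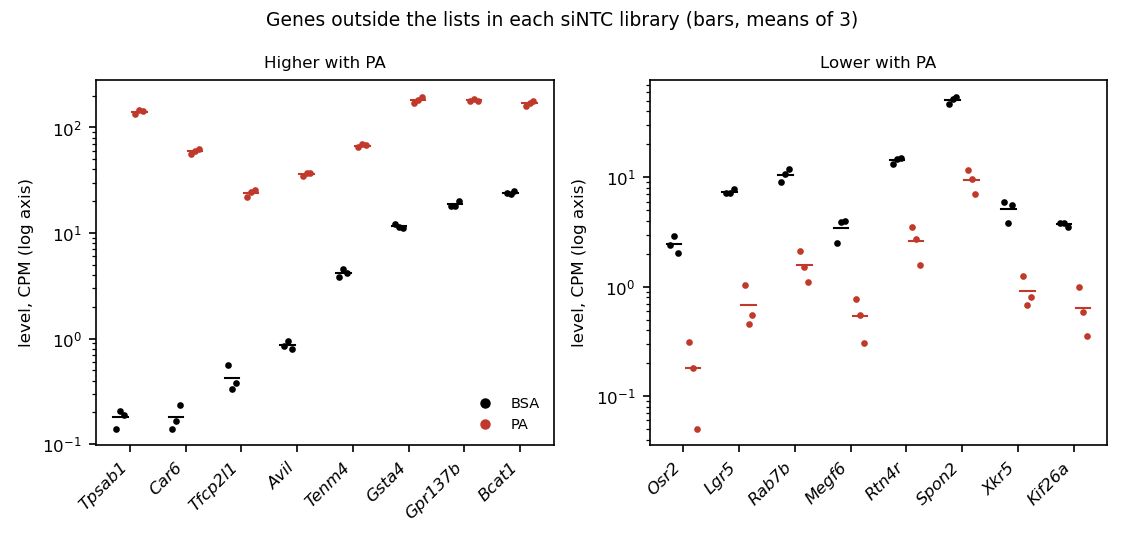
Level in each siNTC library (CPM, logarithmic axis) of 8 genes that were higher and 8 that were lower with PA and are on none of the lists, with BSA in black and PA in red, each point 1 library and each bar the mean of 3. Tpsab1 rises from 0.14 to 0.208 CPM in BSA to 135 to 145 CPM in PA, and Lgr5 falls from at least 7.17 CPM to at most 1.03 CPM.

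The same contrast was measured in 12 further libraries in which Erk3 or Mk5 was silenced. PA changed 6992 genes with siErk3 (32.1%) and 6461 with siMk5 (29.7%). Of the 6661 genes changed in siNTC, 5534 changed in the same direction with siErk3, which is 83.1% of the siNTC genes and 79.1% of the siErk3 genes, and 1 changed in the opposite direction. With siMk5 the overlap was 5255 genes, 78.9% and 81.3% of either list, and 5 changed in the opposite direction. In all 3 backgrounds 4945 genes changed the same way, and these comparisons share no library. The integrated stress response rose in 41 of 41 members in each, with medians of 1.67, 1.62 and 1.71 in siNTC, siErk3 and siMk5, and the mitotic genes fell in 17, 18 and 17 of 18. For Trib3 the log2 fold changes were 5.02, 4.89 and 5.09, for Angptl4 4.09, 3.95 and 3.86, and for Tpsab1 9.53, 9.79 and 9.04.

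Few genes passed a test of the difference itself. The interaction of PA with siErk3 was significant for 8 genes (0.0367%), 5 of them on the interferon list. The 3 others were Ccn1, with a log2 fold change of -0.21 in siNTC and -0.6 in siErk3, Gja5 (-1.41 and -0.83) and Apol8 (-0.27 and 1.01), which were chosen after their values were seen. The connexin gene Gja5 passed in both interactions. The interaction with siMk5 was significant for 46 genes (0.211%), of which 30 were on the interferon list, 1 was on the fiber-type list and 15 were on neither list. Of the 21772 genes, 1329 had an unadjusted interaction p-value below 0.05 in edgeR with siErk3 and 1617 with siMk5. A share of 0.05 is expected where nothing differs. Both interactions use the siNTC libraries. The counts of significant genes depend on single libraries, since leaving out 1 library at a time gave 0 to 24 genes for siErk3 and 24 to 67 for siMk5. Of the 809 tested members of the lists, Ccn1 was the only one outside the interferon and fiber-type lists that passed in either interaction. A gene that did not pass is not shown to respond alike. Of the 42 NF-kappaB and inflammatory genes, for example, 29 rose in siNTC, 26 in siErk3 and 20 in siMk5, and none of them passed a test of the difference.

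**Figure D5:**
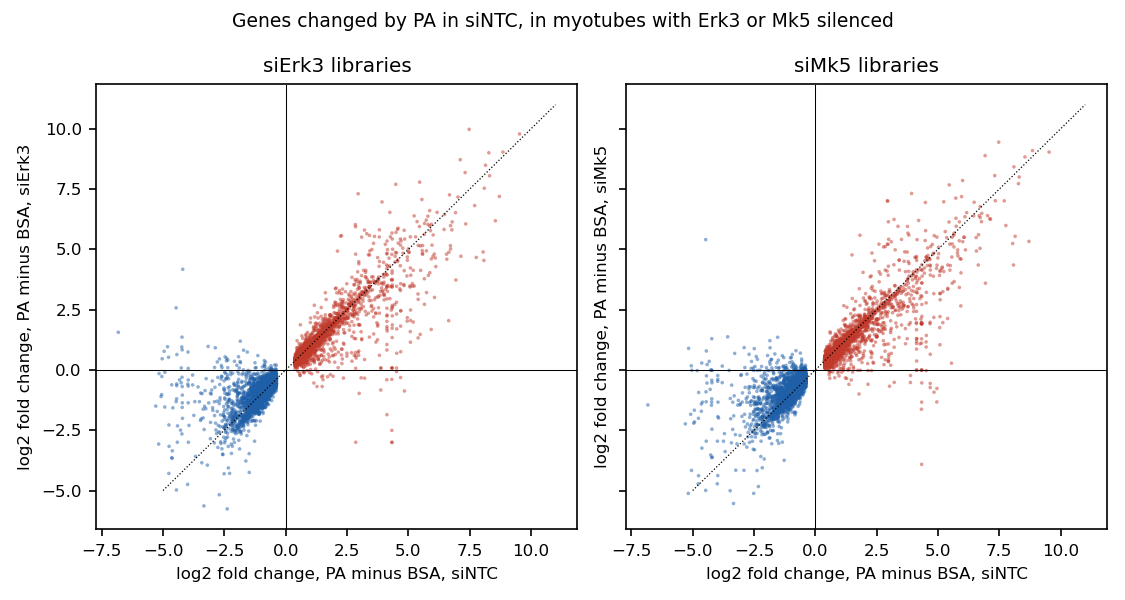
Log2 fold change of PA minus BSA for the 6661 genes changed in siNTC (horizontal axis), against the same contrast in the siErk3 libraries (left) and the siMk5 libraries (right), with genes that rose in siNTC in red and genes that fell in blue. Of these genes 98.6% had the same sign with siErk3 and 98% with siMk5, and the dotted line marks equal values.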

How the data were processed

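RNA-seq libraries of C2C12 myotubes were compared between PA and BSA. Per the file headers and the labels, the authors trimmed the reads (Trim Galore), aligned them with STAR and counted read pairs per gene with featureCounts 2.0.0 (reverse-stranded, minimum mapping quality 3, primary alignments) on Ensembl annotation 105 of GRCm39, while the labels' notes name mm10. The values analysed are these deposited raw counts. A second deposited table of log2 values was not used. Gene symbols were found for 21601 of the 21772 genes tested.

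Only genes that reached 10 counts in total were tested. Libraries were scaled by TMM, and 1 quasi-likelihood model with a coefficient for each of the 6 groups was fitted in edgeR 4.0.16 (R 4.3.3). P-values were adjusted over all genes by Benjamini-Hochberg, and a gene was called with an FDR below 0.05 and a fold change above 1.3. Limma 3.58.1 and DESeq2 1.42.0 served the alternatives. On simulated counts, 98% of 200 genes with a log2 fold change of 1 were recovered in the siNTC comparison and 7 unchanged genes were called. The simulated changed genes were drawn from well-expressed genes only, with the same dispersion for all genes. They were also far fewer than the changed genes of the data, so these values do not give the sensitivity or error of the real comparison. Total counts per siNTC library ranged from 13041979 to 23615343. Promoter letters are from RefSeq tables of GRCm38.p6.

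The members and the gene lists were chosen with earlier results of these data known. Named genes were up to 8 changed members of each list by FDR, up to 4 unchanged members by level, members whose role describes the list, and, outside the interferon and fiber-type lists, the 20 smallest FDRs, the 20 largest rises and falls (mean of at least 1 CPM in a group) and the 10 largest rises and falls per kilobase, with Mapk6 and Mapkapk5. Counts of near-identical genes (Hspa1a and Hspa1b, Acot1 and Acot2, the alpha class glutathione transferases, H2-M10.1) may be split unevenly between copies. Some genes are not reported here.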

Additional observations from a re-analysis of the deposited data

Results flagged for a closer look

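By a test of the difference itself, the effect of PA differed between siNTC and siErk3 myotubes for 8 genes. Among these, Ccn1 was the only member of the lists described by function above. Ccn1, a matricellular target of YAP, had a log2 fold change of PA minus BSA of -0.21 with siNTC and -0.60 with siErk3, a difference of -0.38 ± 0.07 (standard error, edgeR interaction FDR = 0.0407). This difference only just exceeded the 1.3-fold criterion. The levels of Ccn1 with siNTC were 212, 221 and 217 CPM with BSA and 184, 183 and 194 with PA. The call was lost with edgeR's own filter, with at least 10 counts in every library, and without the siNTC_BSA library 1 or 3, the siErk3_BSA library 1 or 2 or the siErk3_Palmitic library 2, since no gene passed in those fits. Groups of 3 libraries were not examined for single outlying values.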

How the results depend on the processing

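The count of 6661 changed genes in siNTC was 6177 with DESeq2, 6670 with size factors of DESeq2 in edgeR, 6560 without a count filter, 6355 with edgeR's own filter, 5359 with at least 10 counts in every library and 6652 with only the siNTC groups fitted. Leaving out 1 library at a time gave 6029 (without the PA library labelled replicate 3) to 6662 genes in siNTC, 6396 to 7120 in siErk3, 5898 to 6487 in siMk5, 0 to 24 for the siErk3 interaction and 24 to 67 for the siMk5 interaction, 452 to 468 changed members of the lists (463 with all libraries) and 247 to 255 of the named genes called (251). The siErk3 interaction gave 0 genes without the siNTC_BSA library 1 or 3, the siErk3_BSA library 1 or 2 or the siErk3_Palmitic library 2, and 24 without the siErk3_Palmitic library 3. A fold criterion of 2 left 2435 genes in siNTC, 2772 in siErk3, 2407 in siMk5, 5 for the siErk3 interaction and 7 for the siMk5 interaction. The siErk3 interaction gave 4 genes with DESeq2 size factors, 72 without a count filter, and 0 with edgeR's own filter or with at least 10 counts in every library, and the siMk5 interaction gave 130 without a count filter. Different numbers of genes tested are part of the filter settings, and the causes of the others were not tested. The share of higher genes among all changed genes stayed between 47.1% and 53% over the settings and the median log2 fold change of all genes between -0.04 and 0.00. Higher genes were the majority with all libraries and the main settings (50.8%) but the minority with DESeq2 size factors (49.4%), edgeR's own filter (48.1%) and at least 10 counts in every library (47.1%). No call of a named gene reversed its direction under the alternatives run. Calls of Acacb, Traf6 and Trim30c were lost with DESeq2. Replicate numbers did not pair the siNTC libraries (correlations of deviations of 0.02, 0.08 and -0.03 over 10553 genes between libraries of the same number), and a fit with the replicate number as a block gave 6599 genes.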

Other observations

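Families below were grouped by gene symbol after their values were seen, so their counts are descriptions. Host genes of small nucleolar RNAs, long transcripts whose introns give the guides of ribosomal RNA modification, were higher with PA in 11 of 19 and lower in none, with a median log2 fold change of 1.03. Snhg12 was found at 14.3, 13.8 and 13.9 CPM with BSA and 81.6, 104 and 117 with PA, and Gas5 at 64.3, 56.1 and 53.9 CPM with BSA and 139, 151 and 165 with PA. They ran against the skew of long non-coding RNA genes at large, of which 156 rose and 402 fell. Genes that build and attach N-glycans in the ER rose in 15 of 22, with a median of 0.51, and the p24 cargo receptors between ER and Golgi in 7 of 9, led by Tmed5 at 1.91 ± 0.07. The COPII coat was mixed, with 5 of 13 higher and 2 lower.

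All 6 alpha class glutathione transferases rose, with a median of 4.53, but their sequences are near-identical and some read pairs cannot be placed with certainty. Of the other glutathione transferases 4 of 14 rose and 3 fell. Exporters of drugs and conjugates rose in 4 of 10, with Abcb1a at 0.211, 0.292 and 0.236 CPM with BSA and 11.7, 12.9 and 12.1 with PA and Abcc4 at 10.2, 11.8 and 10.5 CPM with BSA and 121, 132 and 138 with PA. Mitochondrial chaperones and proteases rose in 7 of 12, with Hspa9 at 1.52 ± 0.06 and Lonp1 at 1.40 ± 0.06, whereas mitochondrial ribosomal proteins rose in 6 of 77 and fell in 2. Proteasome subunits rose in 8 of 37, or 5 of 34 without those on the interferon list, against 15.5% of all genes. The largest rises were of Psmb8 and Psmb9 (2.77 and 2.15), subunits of the immunoproteasome that interferon induces.

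Genes of WNT signaling outside the lists fell in 15 of 32 and rose in 3, with a median of -0.58. Lgr6 had a log2 fold change of -1.97 ± 0.19, Dkk3 of -1.71 ± 0.12 and Sfrp2 of -1.60 ± 0.17, beside that of Lgr5 given above. ADAMTS proteases of the matrix fell in 12 of 21 and rose in 1, integrin chains fell in 9 of 25 and rose in 3, and Hox genes fell in 12 of 24 and rose in 3. Of all genes 15.1% fell and 15.5% rose. Among the teneurins Tenm2 and Tenm4 rose and Tenm3 fell (-0.93 ± 0.07).

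A pair of neighbours moved in opposite directions. Tpsab1 and the calcium channel gene Cacna1h lie 28722 bases apart on chromosome 17 with no tested gene between them, and Cacna1h fell from 0.913, 1.38 and 1.32 CPM to 0.315, 0.137 and 0.152 CPM. Gfral, the receptor of Gdf15, which is known from the hindbrain, had 1 read pair in the BSA libraries and 63 in the PA libraries, a ratio of 58.5 (95% counting interval 10.1 to 2347).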
